A study of Homo sapiens with 60 samples.

Results

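Messenger RNA of HT29 cells, a long-established line from a human colon adenocarcinoma, was compared between 3 libraries treated with wortmannin, an inhibitor of phosphoinositide 3-kinase (PI3K), and 3 vehicle libraries. Wortmannin was given at 10 µM for 24 h, and the vehicle was DMSO for 24 h, stated as 0.1% in the sample labels and as 2% in the series text. The same batch, as the titles name it, held 3 libraries of LY294002, another PI3K inhibitor, also at 10 µM for 24 h. These serve as a comparison at the same concentration and time. How far either drug inhibited PI3K was not measured in these data. The 6 libraries were chosen by their titles out of the 60 HT29 libraries used here, the rest of which, besides LY294002, were treated with water extracts of medicinal plants. Of the 60675 genes in the deposited table, 16767 passed a filter on low counts and were tested. No label says that the 3 libraries of a group came from separate cultures, so p-values measure only the spread between these libraries, which may be technical.

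PI3K enzymes phosphorylate a membrane lipid after growth factor or insulin receptors are engaged, and the product recruits the kinase AKT, which stimulates mTOR and keeps FOXO transcription factors out of the nucleus. Wortmannin is a fungal furanosteroid that binds PI3K covalently, whereas LY294002 is a synthetic, reversible inhibitor that competes with ATP. Both also act on related kinases at high doses. In gut epithelial tumour cells the pathway is known for its part in growth, nutrient uptake and the cell cycle.

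The wortmannin libraries held 21806083 to 27141203 expected counts, the LY294002 libraries 25363981 to 26689549 and the vehicle libraries 23349216 to 24770997. Mitochondrially encoded genes took 7.83% to 10.2% of the counts in wortmannin libraries, 8.73% to 9.70% in LY294002 libraries and 8.61% to 11.4% in vehicle libraries. All 12 markers of colon epithelium were tested, and their summed level was 14180 to 14680 CPM (counts scaled to a common library size with TMM factors) in wortmannin libraries and 12480 to 13000 CPM in vehicle libraries. Of the markers of other cell types, 2 of 7 for fibroblasts, 3 of 8 for leukocytes and 2 of 5 for endothelium had enough counts to be tested. Fibroblast markers summed to 1.88 to 2.64 CPM with wortmannin and 2.14 to 2.43 CPM with vehicle, and endothelial markers to 1.84 to 2.73 and 1.71 to 2.08 CPM. COL1A2, CD3E, MS4A1 and KDR were at 0 counts in all 6 libraries. The leukocyte markers summed to 1827 to 1899 CPM with wortmannin and 1378 to 1442 CPM with vehicle, nearly all of it LYZ (lysozyme), which intestinal epithelium also makes.

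Wortmannin left most genes within the spread between libraries and moved many others by a little. Antiviral genes of the interferon response stood at the top of the genes that rose. Among genes of at least 5 CPM whose groups did not overlap, genes of mitosis were among those that fell most. By edgeR's quasi-likelihood test with Benjamini-Hochberg adjustment, 1050 genes were higher with wortmannin (6.26% of those tested) and 1250 were lower (7.46%) at an adjusted p under 0.05. The median log2 fold change was 0.36 among the genes that were higher and -0.22 among those that were lower, with a median of 0 over all genes tested. Of the 1050 genes that were higher, 815 changed by less than 1.5-fold, as did 1196 of the 1250 that were lower. The split between the directions moves with the scaling: library totals alone gave 1401 higher and 743 lower, and upper-quartile factors gave 1282 and 909. The fit of the 6 libraries alone called 704 higher and 545 lower, that of the 9 vehicle and inhibitor libraries 489 and 347, and without wortmannin replicate 1 the lower genes numbered 813.

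Only 80 genes (0.477% of those tested) changed at least 2-fold, 64 higher and 16 lower, and 18 of the 80 were on the list of interferon-response genes. The 80 became 43 by DESeq2, 155 without the filter on low counts and 45 in the fit of 9 libraries. Of the 9 with a mean of at least 5 CPM, all were higher, and 7 of them (OAS2, MX1, IFI6, IFIT1, IFI27, DDX60 and IFI44) were interferon-response genes. The other 2 were TMC4 and BAIAP3. TMC4, a member of the transmembrane channel-like family (chr19:54160108-54173250, GRCh38), had 53.7, 55.8 and 52.9 CPM in wortmannin libraries against 27.4, 27.2 and 26.3 CPM in vehicle libraries (log2 fold change 1.01 ± 0.06 SE, adjusted p = 6.55e-18). BAIAP3, a C2-domain protein of secretory vesicles (chr16:1333601-1349441), had 13.6, 12.5 and 12.2 CPM against 4.65, 6.45 and 6.37 CPM in vehicle libraries (log2 fold change 1.13 ± 0.14, adjusted p = 2.53e-08). Neither gene's groups overlapped, and neither differed detectably between the inhibitors: TMC4 averaged 54.1 ± 1.48 CPM with wortmannin and 56.8 ± 2.44 CPM with LY294002 (SD, n = 3 each, log2 difference -0.07 ± 0.05, adjusted p = 0.395).

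**Figure D1:**
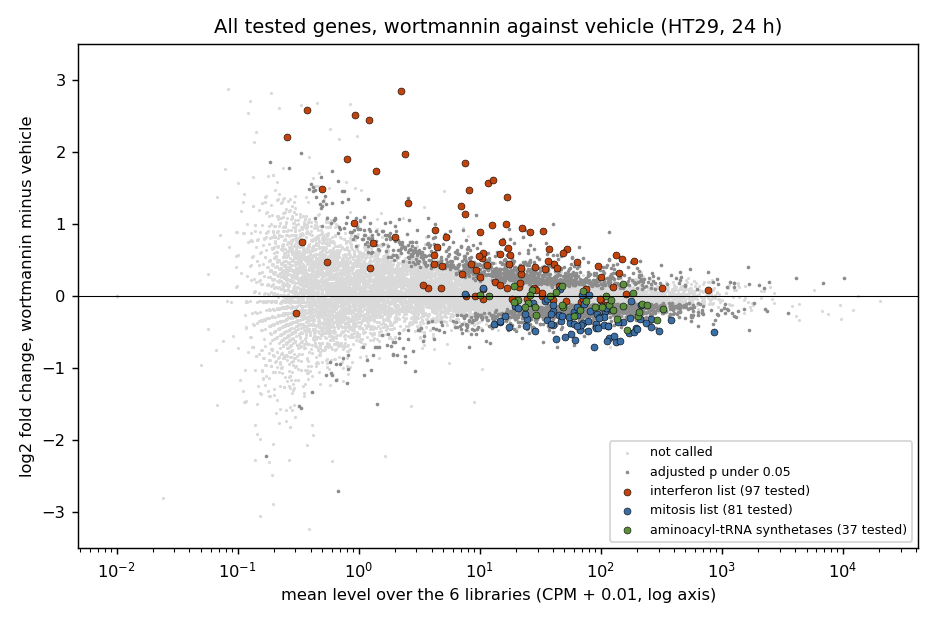
Log2 fold change of each tested gene, wortmannin over vehicle (vertical axis), against its mean level in CPM over the 6 libraries (horizontal axis, log scale); dark grey points passed the test, light grey ones did not, and larger points mark the interferon, mitosis and aminoacyl-tRNA synthetase lists. Most interferon genes lie above 0 and most mitotic genes below it, and 39 genes lie beyond the vertical limits of 3.5.

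The largest fall among genes of at least 5 CPM whose groups did not overlap was that of PTTG1 (securin, the inhibitor of separase; chr5:160421822-160428744), with 63.2, 65.7 and 71.0 CPM in wortmannin libraries against 108, 109 and 110 CPM in vehicle libraries (log2 fold change -0.71 ± 0.06, adjusted p = 5.7e-12). Of the 12 genes with the largest falls by this rule, PTTG1, PLK1, AURKA, CCNB1, CENPE and DLGAP5 were on the list of mitotic genes. CDKN3, a phosphatase that acts on cyclin-dependent kinases, had 24.9, 26.2 and 26.7 CPM against 39.4, 39.7 and 41.8 CPM in vehicle libraries (log2 fold change -0.64 ± 0.06, adjusted p = 1.66e-10). PRR11, a proline-rich protein with a part in mitotic progression, had 42.9, 46.1 and 48.2 CPM against 69.3, 72.5 and 78.8 CPM (log2 fold change -0.69 ± 0.07, adjusted p = 6.39e-11). Every wortmannin library lay below every vehicle library for these 3 genes, as the rule requires. The other 4 were ASNS, described with the amino acid genes, the clock repressor NR1D1, the long non-coding RNA gene DLEU2, at 5.57, 6.28 and 6.66 CPM against 9.95, 10.4 and 9.81 CPM, and the membrane mucin MUC17, at 8.89 ± 0.883 CPM against 13.7 ± 1.54 CPM (SD, n = 3 each). The fall of MUC17 (log2 fold change -0.62, adjusted p = 0.0151) was not called without vehicle replicate 2 (-0.60), vehicle replicate 3 (-0.55) or wortmannin replicate 1 (-0.55), nor in the fit of the 9 vehicle and inhibitor libraries, with or without the replicate number as a block.

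Interferon-stimulated genes rose together with wortmannin, while the genes for interferons, their receptors and the Janus kinases did not pass the test. Of 97 tested members of the interferon list, 62 were higher and 0 lower, against 6.26% higher over all genes tested. Their median log2 fold change was 0.45, against 0 over all genes tested. At a mean of at least 5 CPM over the 6 libraries, 46 were higher and 0 lower, while 1070 and 1085 of all genes kept by that filter were. The share of 6.26% does not apply to that filter, and how many list members it kept is not given here. The 3 wortmannin and 3 vehicle libraries did not overlap for 69 of the 97, beside 28% of all genes tested. The proteins of this group detect viral RNA, degrade it, tether or modify proteins, or relay the signal, and in textbook terms they are transcribed when a complex of STAT proteins and IRF9 binds the interferon-stimulated response element (ISRE) near their start sites. The promoters of IFIT1 and MX1, among the antiviral genes with the smallest p, show the element; capitals mark matches to GAAANNGAAA on either strand within the 200 bases before the RefSeq start (GRCh38.p14), written 5′ to 3′ on the gene's strand, with IFIT1 at chr10:89392423-89392622 (plus strand) and MX1 at chr21:41431850-41432049 (plus strand, 1 of its 3 start windows).
IFIT1: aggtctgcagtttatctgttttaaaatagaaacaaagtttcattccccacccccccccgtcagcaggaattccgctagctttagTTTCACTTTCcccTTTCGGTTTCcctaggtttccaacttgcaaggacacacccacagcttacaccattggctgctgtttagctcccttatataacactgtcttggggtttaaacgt
MX1: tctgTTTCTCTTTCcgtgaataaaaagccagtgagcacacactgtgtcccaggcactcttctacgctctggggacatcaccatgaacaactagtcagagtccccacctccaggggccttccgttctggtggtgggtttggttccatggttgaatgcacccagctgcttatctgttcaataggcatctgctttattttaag
The matches, which do not overlap, began 116 and 103 bases before the start of IFIT1, and the match of MX1 began 196 bases before its start. Where a gene had several windows, they were ranked by their number of matches and the first was printed. The printed MX1 window was thus picked for its motif, and it lies inside the annotated span of the gene. Of 37 tested antiviral genes with a promoter in the table, 25 (67.6%) held the motif within the 250 bases searched before the start, against 3.24% of all 11315 tested genes with one. The share was 20 of 32 among the antiviral genes that rose and 5 of 5 among those that were not called. No match was found in the OAS1 window, which holds gaaacgaaa, the same repeats with a shorter gap than the one searched for. A match describes the letters in the window and was not tested for binding.

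Among antiviral effectors, 40 of 50 tested genes rose and 0 fell, beside 6.26% and 7.46% of all genes tested. The median log2 fold change was 0.63. Genes could pass the filter on low counts through the wortmannin libraries alone, and such genes could hardly be called lower. At a mean of at least 5 CPM over the 6 libraries, 30 rose and 0 fell. That filter called 1070 genes higher and 1085 lower over all genes it kept, so the shares above are not its own. How many antiviral genes it kept is not given here. IFIT1, which binds viral RNA that lacks the cellular cap methylation (chr10:89392546-89406486), had 10.99, 12.4 and 12.2 CPM in wortmannin libraries against 4.31, 5.14 and 3.36 CPM in vehicle libraries (log2 fold change 1.47 ± 0.11, adjusted p = 6.49e-14). MX1, a dynamin-like GTPase that blocks viral replication (chr21:41420304-41459214), had 15.4, 21.3 and 21.4 CPM against 6.62, 6.37 and 6.06 CPM (log2 fold change 1.61 ± 0.14, adjusted p = 9.44e-12). For both genes all wortmannin libraries lay above all vehicle libraries, and wortmannin replicate 1 was the lowest of its group. The annotated span of LIPA on the opposite strand covers IFIT1, and since the strand setting of the counting is not given in the sources used here, reads of overlapping genes may be shared between them.

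The oligoadenylate synthetases make the second messenger that activates RNase L. OAS1 (chr12:112906777-112933222) had 34.7, 45.4 and 49.5 CPM in wortmannin libraries against 23.6, 24.8 and 20.9 CPM in vehicle libraries (log2 fold change 0.90 ± 0.08, adjusted p = 3.22e-11). OAS2 (chr12:112978395-113011723) had 8.08, 12.8 and 14.8 CPM against 3.20, 3.99 and 2.697 CPM, a log2 fold change of 1.84 ± 0.21. Again wortmannin replicate 1 was the lowest of the 3, and no vehicle library reached it. DDX60, a helicase, had 9.22, 10.5 and 10.2 CPM against 4.05, 4.93 and 3.49 CPM (1.25 ± 0.14, adjusted p = 4.06e-09), and IFI44 had 9.34, 11.2 and 10.9 CPM against 5.17, 4.40 and 4.69 CPM (1.14 ± 0.12, adjusted p = 2.09e-09). SLFN5, of the Schlafen family (chr17:35243036-35273655), had 48.5, 43.2 and 46.4 CPM against 29.6, 28.2 and 29.6 CPM (0.66 ± 0.07, adjusted p = 3.19e-10). The groups of these 3 genes did not overlap either. A larger fold change was seen for IFI44L (chr1:78619922-78646145), chosen after its values were seen, at 3.02, 4.37 and 4.30 CPM against 0.469, 0.822 and 0.309 CPM; it rests on 289 summed counts with wortmannin and 38 with vehicle. IFI6 and IFI27, small hydrophobic proteins induced by interferon, and IFITM3, which hinders viral entry at endosomes, were also among the 12 largest rises; IFITM3 shares near-identical stretches with IFITM1 and IFITM2, so its 22.9, 31.6 and 33.3 CPM against 14.2, 16.0 and 15.2 CPM are uncertain in how reads were split.

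**Figure D2:**
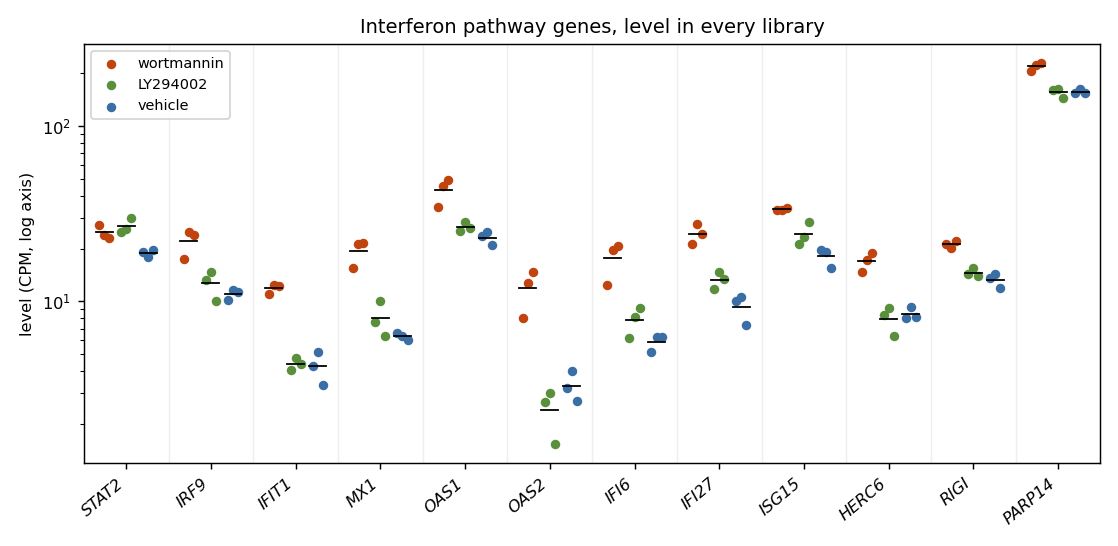
Level in CPM (log axis) of 12 genes of the interferon list in each wortmannin, LY294002 and vehicle library (n = 3 each), with each point a library and the black bar the group mean. Every wortmannin library lies above every vehicle library for all 12 genes, and the LY294002 libraries lie near the vehicle libraries for IFIT1 and near the wortmannin libraries for STAT2.

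The signal transducers of the pathway were higher in part. IRF9, the DNA-binding partner of the STAT dimer (chr14:24161053-24166565), had 17.5, 24.8 and 24.0 CPM in wortmannin libraries against 10.2, 11.7 and 11.4 CPM in vehicle libraries (log2 fold change 0.99 ± 0.13, adjusted p = 3.55e-07), and STAT2 had 27.2, 23.9 and 23.0 CPM against 19.0, 17.8 and 19.7 CPM (0.40 ± 0.09, adjusted p = 0.00204). No vehicle library reached the lowest wortmannin library for either gene. The kinases JAK1 (0.10), JAK2 (0.11) and TYK2 (0.00) and the transducer STAT3 (-0.04) were not called. Of 5 interferon regulatory factors, only IRF7 rose (32.8 ± 1.80 CPM against 24.9 ± 1.61 CPM, log2 fold change 0.40), while IRF1 (0.04), IRF2 (0.16), IRF3 (-0.05) and IRF5 (0.19) were not called.

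Of 10 tested sensors of foreign nucleic acid 5 rose, beside 6.26% of all genes tested. RIGI, a sensor of viral RNA, had 21.3, 20.1 and 22.1 CPM in wortmannin libraries against 13.6, 14.4 and 11.9 CPM in vehicle libraries (log2 fold change 0.67 ± 0.08, adjusted p = 4.97e-09). IFIH1, which senses long double-stranded RNA, had 16.1, 17.1 and 19.8 CPM against 11.3, 12.2 and 11.7 CPM (0.58 ± 0.09, adjusted p = 2.46e-06), and STING1, the adaptor of DNA sensing, had 18.4, 19.3 and 22.6 CPM against 13.96, 14.2 and 15.9 CPM (0.45 ± 0.08, adjusted p = 4.71e-05). The groups of these 3 did not overlap. DHX58 also rose, and the fifth, TLR3 (0.44, adjusted p = 0.0252), was not called without vehicle replicate 1 (0.42), vehicle replicate 2 (0.35), wortmannin replicate 2 (0.44) or wortmannin replicate 3 (0.36). It was not called in the unblocked fit of 6 libraries or in either fit of 9 either, but was in the blocked fit of 6. Of the receptors, 0 of 6 were called by edgeR over the 60 libraries or by DESeq2 and 1 had an unadjusted p under 0.05, with log2 fold changes of -0.05 for IFNAR1, 0.26 for IFNAR2 (adjusted p = 0.131), -0.08 for IFNGR1 and 0.16 for IFNLR1. IFNAR2 was called in the blocked fit of the 6 libraries alone (0.27, adjusted p = 0.0249). Ligand transcripts were scarce: IFNB1, IFNG and IFNL3 had 0 counts over the wortmannin and vehicle libraries, and IFNL1 had 4 counts with wortmannin and 1 with vehicle, fewer than the filter requires. IFNE, an epithelial type I interferon, was the ligand that could be tested, at 9.06, 7.52 and 7.12 CPM against 7.26, 6.29 and 5.70 CPM (0.30 ± 0.11, adjusted p = 0.0585). Its groups overlapped, and it was called without vehicle replicate 1 (0.40) or wortmannin replicate 3 (0.37), with library totals alone (0.34) and with upper-quartile factors (0.33). Of 3 tested feedback inhibitors (SOCS1, CISH and PIAS1), 0 were called by edgeR or by DESeq2, and 1 had an unadjusted p under 0.05.

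Of ISG15, a ubiquitin-like protein, and genes from the enzyme families that attach or remove it, 5 of 6 tested rose, beside 6.26% of all genes tested. ISG15 itself (chr1:1001138-1014540) had 33.1, 33.0 and 34.3 CPM in wortmannin libraries against 19.7, 19.1 and 15.5 CPM in vehicle libraries (log2 fold change 0.89 ± 0.10, adjusted p = 3.34e-09), and HERC6, of the family of ISG15 ligases, had 14.7, 17.2 and 18.9 CPM against 8.07, 9.25 and 8.18 CPM (0.99 ± 0.10, adjusted p = 4.85e-10). The conjugating enzyme UBE2L6, at 158 summed counts with wortmannin and 45 with vehicle, and the activating enzyme UBA7, at 188 and 100, also rose. All wortmannin libraries exceeded all vehicle libraries for these 4 genes. The deconjugating protease USP18 (0.57, adjusted p = 0.00566) was not called without wortmannin replicate 2 (0.47) or in the fits of 9 libraries, and HERC5 (0.47, adjusted p = 0.506) was not called. All 5 tested ADP-ribosylation genes rose, with a median log2 fold change of 0.48. PARP14 (chr3:122680618-122730840) had 206, 222 and 228 CPM against 154, 161 and 154 CPM (0.48 ± 0.05, adjusted p = 6.39e-11). PARP9 and DTX3L, whose products act as a pair and whose genes share a divergent start, had 50.1, 57.8 and 69.6 CPM against 35.0, 43.6 and 38.1 CPM, and 102, 111 and 114 CPM against 89.2, 90.9 and 91.3 CPM. The remaining 2 were called less firmly: PARP10 (0.55) was not called without vehicle replicate 1 (0.51), nor PARP12 (0.44) in the blocked fit of 9 libraries. Of 4 guanylate-binding proteins, 3 rose, GBP2 (21.2, 20.0 and 23.0 CPM against 13.4, 15.9 and 13.9 CPM, 0.57 ± 0.09) in every fit run. The 3 calls became 1 without vehicle replicate 3, wortmannin replicate 2 or wortmannin replicate 3. They also became 1 in the unblocked fit of 6 libraries and in both fits of 9, and 2 in the blocked fit of 6.

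LY294002 raised few of these genes. Against vehicle it gave 7 higher and 6 lower of the 50 antiviral genes, beside 18.7% and 20.5% of all genes tested; the 2 inhibitors share the vehicle libraries, so their fold changes over vehicle are not independent. Tested directly in the same fit, 35 of the 50 antiviral genes were higher with wortmannin than with LY294002 and 0 were lower, beside 12.7% and 9.49% of all genes tested. IFIT1 averaged 11.9 ± 0.766 CPM with wortmannin and 4.42 ± 0.341 CPM with LY294002 (SD, n = 3 each, log2 difference 1.42 ± 0.11 SE, adjusted p = 2.23e-14). HERC6 averaged 17.0 ± 2.11 CPM with wortmannin and 7.94 ± 1.41 CPM with LY294002 (1.09 ± 0.10, adjusted p = 1.08e-11). SLFN5 (log2 difference 0.15, adjusted p = 0.0943) and STAT2 (-0.11, adjusted p = 0.396) did not differ detectably, and IFNE was lower with wortmannin than with LY294002 (-0.71, adjusted p = 4.68e-07).

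Across the 21 groups of the batch, the summed level of the 50 antiviral genes was 2369, 2611 and 2680 CPM in the wortmannin libraries, 1949 to 2114 CPM in the LY294002 libraries and 2040 to 2146 CPM in the vehicle libraries. None of the 57 other libraries, of 20 groups, exceeded the lowest wortmannin library; the highest stood at 2216 CPM, and the means of the 20 groups ran between 1920 and 2189 CPM. The gene that adds most to this sum, LGALS3BP, was itself not called (743, 800 and 839 CPM against 708, 747 and 786 CPM in vehicle libraries, 0.09, adjusted p = 0.215). Counted gene by gene, 47, 48 and 49 of the 50 genes lay above the vehicle mean in wortmannin replicates 1, 2 and 3. For the 52 DNA replication genes the counts were 26, 17 and 34. The same count was not made over all genes tested. Antiviral genes that passed the filter only through the wortmannin libraries would lie above the vehicle mean by that filter.

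**Figure D3:**
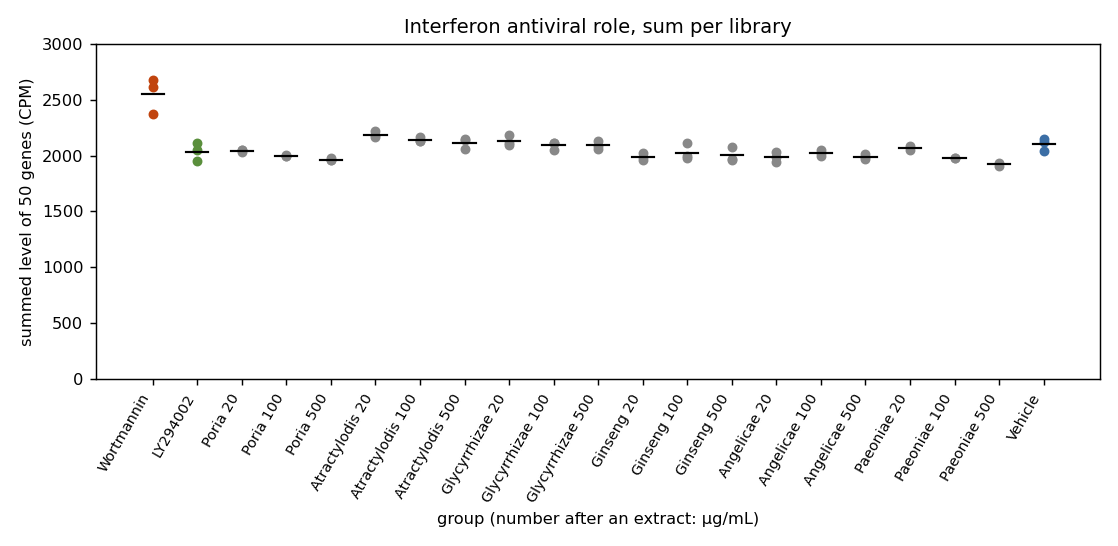
Summed CPM of the 50 antiviral genes in each library of all 21 groups, 1 point a library and the black bar the group mean, with the dose of each extract in µg/mL. The 3 wortmannin libraries, at 2369 to 2680 CPM, lie above the other 57, which reach at most 2216 CPM.

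Antigen presentation genes, many of which also respond to interferon, moved in both directions. Of 21 tested, 8 rose and 2 fell, beside 6.26% and 7.46% of all genes tested; the 8 became 4 in the fit of 9 libraries and 3 with its block. TAP1, a subunit of the peptide transporter of the endoplasmic reticulum (chr6:32845209-32853978), had 8.47, 8.26 and 9.29 CPM in wortmannin libraries against 6.79, 5.88 and 6.41 CPM in vehicle libraries (log2 fold change 0.45 ± 0.10, adjusted p = 0.00186), and TAPBPL, a peptide editor (chr12:6451690-6466517), had 5.22, 5.58 and 5.41 CPM against 3.03, 2.96 and 3.23 CPM (0.81 ± 0.15, adjusted p = 0.000135). NLRC5, an activator of class I genes, rose on few counts (79 summed with wortmannin and 27 with vehicle). Their groups did not overlap. B2M (0.13, adjusted p = 0.0701) was not called, though it was without wortmannin replicate 1 (0.16), with library totals (0.17), with upper-quartile factors (0.15), with the filter at 5 CPM (0.15) and in both blocked fits other than that of 9 libraries. The 2 that fell, CALR and PDIA3, are chaperones of the endoplasmic reticulum: CALR had 467, 481 and 515 CPM against 622, 633 and 602 CPM, and PDIA3 had 636, 640 and 651 CPM against 768, 781 and 742 CPM.

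Genes of mitosis fell with wortmannin, mostly by less than 1.5-fold. Of 81 tested, 66 were lower with wortmannin and 0 higher, with a median log2 fold change of -0.34, against 7.46% lower and a median of 0 over all genes tested. The groups did not overlap for 68 of the 81, beside 28% of all genes tested. In bulk RNA, fewer mitotic cells and less RNA per mitotic cell cannot be told apart. Many of these genes are known to be transcribed late in the cycle through the cell cycle homology region (CHR) bound by the MuvB complex, often with CCAAT boxes upstream. The promoters of CCNB2, CDC20 and PRC1, which had the smallest p among mitotic genes in the promoter table, are printed for that reason; capitals mark TTTGAA on either strand in the 200 bases before the RefSeq start (GRCh38.p14), at chr15:59104946-59105145 (plus strand), chr1:43358781-43358980 (plus strand) and chr15:90994536-90994735 (minus strand, written on that strand).
CCNB2: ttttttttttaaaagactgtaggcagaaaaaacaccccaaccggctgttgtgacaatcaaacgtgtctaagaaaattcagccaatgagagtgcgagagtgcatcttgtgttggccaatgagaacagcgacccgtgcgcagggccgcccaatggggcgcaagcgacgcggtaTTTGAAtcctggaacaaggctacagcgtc
CDC20: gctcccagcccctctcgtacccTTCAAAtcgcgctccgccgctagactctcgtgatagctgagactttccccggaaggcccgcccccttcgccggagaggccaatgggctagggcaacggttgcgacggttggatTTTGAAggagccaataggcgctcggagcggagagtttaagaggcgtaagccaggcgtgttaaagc
PRC1: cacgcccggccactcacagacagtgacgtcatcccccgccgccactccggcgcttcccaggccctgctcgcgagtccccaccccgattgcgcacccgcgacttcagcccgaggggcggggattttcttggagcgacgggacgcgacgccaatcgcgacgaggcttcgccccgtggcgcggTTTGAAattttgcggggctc
The match lay 29 bases before the start of CCNB2, 20 before that of PRC1, and 178 and 65 before that of CDC20. Of 70 tested mitotic genes in the table, 35 (50%) held TTTGAA in the 250 bases searched, against 12.1% of all tested genes; among replication genes it was 2 of 44 (4.55%). The share was 31 of 58 among mitotic genes that fell and 4 of 12 among those not called. CCAAT on either strand was found for 51 of the 70 (72.9%) and for 41.1% of all tested genes; the 2 motifs were searched separately.

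At mitotic entry, 7 of 11 genes fell, beside 7.46% of all genes tested. CCNB2, a cyclin of the kinase CDK1 (chr15:59105078-59125045), had 98.7, 102 and 109 CPM in wortmannin libraries against 152, 150 and 153 CPM in vehicle libraries (log2 fold change -0.56 ± 0.04, adjusted p = 1.22e-14), and CDC25B, the phosphatase that activates CDK1, had 96.2, 96.5 and 100 CPM against 130, 127 and 133 CPM (-0.41 ± 0.03, adjusted p = 9.48e-13). CDK1 itself was not called, at 73.5, 67.1 and 67.5 CPM against 78.4, 77.6 and 69.0 CPM (-0.11, adjusted p = 0.262). The kinases that restrain it, WEE1 (0.02) and PKMYT1 (-0.07), and CDC25A (-0.04) were not called either.

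All 21 tested spindle genes fell, beside 7.46% of all genes tested, with a median of -0.41. PRC1, which bundles microtubules at the spindle midzone (chr15:90966038-90995629), had 163, 164 and 176 CPM in wortmannin libraries against 226, 226 and 236 CPM in vehicle libraries (-0.45 ± 0.04, adjusted p = 9.34e-13), and the kinesin KIF4A had 59.8, 54.3 and 55.9 CPM against 79.2, 77.9 and 79.7 CPM (-0.48, adjusted p = 3.75e-12). Of 15 kinetochore genes 12 fell; the kinesin CENPE had 48.8, 47.7 and 49.97 CPM against 72.7, 72.3 and 78.1 CPM (-0.61 ± 0.07, adjusted p = 2.09e-09), and the checkpoint kinase BUB1 73.8, 74.2 and 81.8 CPM against 104, 102 and 108 CPM. Wortmannin libraries lay below vehicle libraries throughout for these 4 genes. The 4 genes of the chromosomal passenger complex fell, by -0.39 for CDCA8 and -0.29 for INCENP, as did all 7 cytokinesis genes, among them ECT2 (207, 212 and 204 CPM against 271, 264 and 270 CPM), and all 7 genes of mitotic chromosome structure, among them TOP2A (354, 336 and 329 CPM against 439, 417 and 421 CPM). Of 7 anaphase-promoting complex genes 5 fell, and FZR1 and FBXO5 were not called, FBXO5 being called without wortmannin replicate 3 (-0.22).

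Of 9 tested regulators of the mitotic programme 3 fell, beside 7.46% of all genes tested, with a median of -0.12. FOXM1, the factor that joins MuvB at late promoters (chr12:2857681-2877155), had 144, 150 and 169 CPM in wortmannin libraries against 209, 216 and 230 CPM in vehicle libraries (-0.50 ± 0.05, adjusted p = 1.3e-09), without overlap. LIN54, the DNA-binding subunit of MuvB, had 45.8, 49.8 and 50.9 CPM against 57.5, 58.6 and 63.1 CPM (-0.29, adjusted p = 1.97e-05). MYBL2, the partner that precedes FOXM1, was not called at 182, 204 and 228 CPM against 211, 220 and 236 CPM (-0.12, adjusted p = 0.246). The 3 regulators that fell became 2 by DESeq2, with library totals alone and in the unblocked fits of 6 or 9 libraries. Leaving out any vehicle library also gave 2. The blocked fit of the 6 libraries gave 4. Without wortmannin replicate 3, 5 of the 9 regulators fell, MYBL2 with them (-0.21).

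Replication genes were mostly not called. Of 52 tested, 4 were higher and 4 lower, with a median of 0.00, which is near the 6.26% and 7.46% of all genes tested. The fit of 9 libraries called 0 higher and 2 lower, and with its block 0 and 1. MCM2, a subunit of the replicative helicase, had 196, 186 and 191 CPM in wortmannin libraries against 200, 196 and 186 CPM in vehicle libraries (-0.02, adjusted p = 0.809), and PCNA, the sliding clamp, had 208, 196 and 190 CPM against 206, 195 and 172 CPM (0.05, adjusted p = 0.667). Both genes' groups overlapped, and 0 of 24 fork genes were called by edgeR or by DESeq2, with 2 at an unadjusted p under 0.05. The 4 that fell were all in nucleotide supply. RRM1, the large subunit of ribonucleotide reductase (chr11:4094707-4138876), had 205, 197 and 200 CPM against 244, 232 and 224 CPM (-0.22 ± 0.03, adjusted p = 3.77e-06) in every fit run, while TK1 (-0.22) and TYMS (-0.20) were called less firmly. TK1 was not called in the blocked fit of 9 libraries. TYMS was not called without vehicle replicate 1 or wortmannin replicate 2 (-0.16 each) nor in the fits of 9, and the count of 4 falls to 2 without wortmannin replicate 2. The 4 that rose were MCM6 (0.16), MCM10 (0.13), CCNE2 (0.28) and E2F2 (0.30), of which 1 was called without vehicle replicate 3. Each of them lost its call without some library: MCM6 (0.12) and CCNE2 (0.22) without vehicle replicate 3, E2F2 (0.28) without wortmannin replicate 1, and MCM10 without vehicle replicate 2 (0.12), vehicle replicate 3 (0.12) or wortmannin replicate 3 (0.07).

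**Figure D4:**
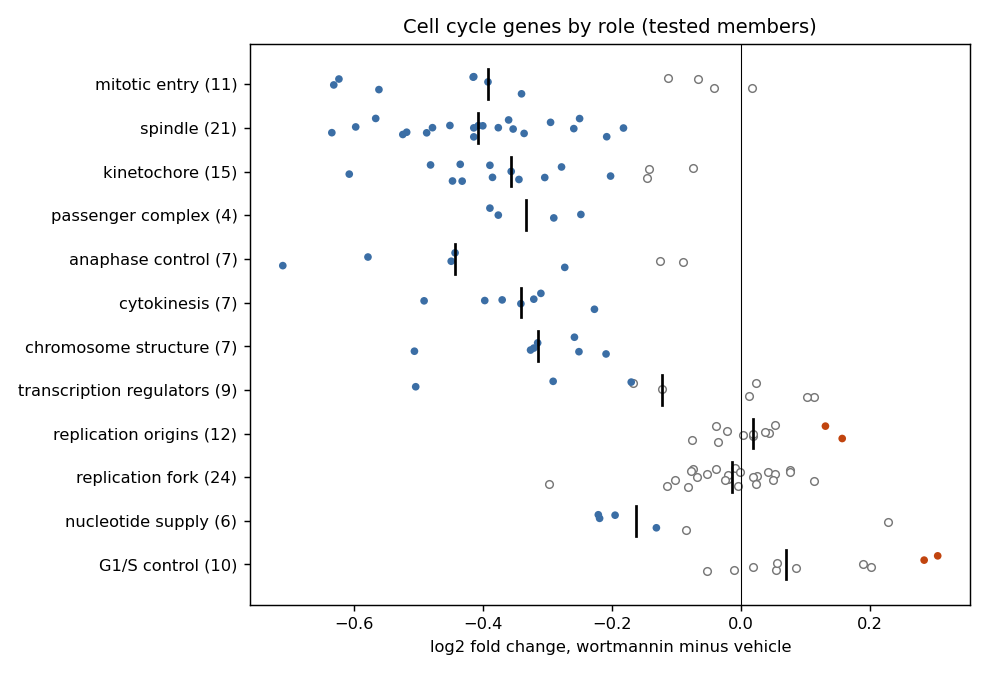
Log2 fold change, wortmannin over vehicle, of each tested gene by its role in mitosis or DNA replication; filled blue points fell, filled red points rose, open points were not called and black bars are medians. Mitotic roles centre between -0.44 and -0.12 and the replication list near 0.

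The inhibitors differed in both lists. LY294002 lowered 78 of the 81 mitotic genes (median -0.64) and 49 of the 52 replication genes (median -0.50) against the shared vehicle libraries, beside 20.5% of all genes tested. Tested directly, 61 of the 81 mitotic genes were higher with wortmannin than with LY294002 and 2 lower, and 47 of the 52 replication genes were higher and 0 lower, beside 12.7% and 9.49% of all genes tested. MCM2 differed by 0.55 on the log2 scale (adjusted p = 1.57e-13), at a mean of 191 CPM with wortmannin and 130 CPM with LY294002. FOXM1 averaged 154 ± 13.1 CPM with wortmannin and 109 ± 10.6 CPM with LY294002 (SD, n = 3 each, log2 difference 0.50 ± 0.05, adjusted p = 8.06e-10). CCNB2 averaged 103 ± 5.21 and 102 ± 2.01 CPM, a log2 difference of 0.01 ± 0.04 (adjusted p = 0.887).

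Part of the genes that supply amino acids, and more of those that load them onto tRNA in the cytosol, fell with wortmannin. In mammalian cells ATF4, a transcription factor induced downstream of mTOR and by the integrated stress response, is known to drive many of them through the CCAAT enhancer-binding protein and ATF response element (CARE). The promoter of ASNS, asparagine synthetase, is shown as the ATF4 target with the smallest p; capitals mark TGATGNAA on either strand in the 200 bases before a RefSeq start (GRCh38.p14, chr7:97872409-97872608, minus strand, written on that strand, 1 of 2 windows).
ASNS: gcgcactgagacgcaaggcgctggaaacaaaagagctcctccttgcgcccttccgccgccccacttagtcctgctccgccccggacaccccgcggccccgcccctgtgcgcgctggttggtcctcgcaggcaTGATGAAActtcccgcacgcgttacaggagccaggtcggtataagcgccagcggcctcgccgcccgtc
The match lay 68 bases before this start, whose window ranked first of the 2 by number of matches. On the ATF4 list 5 of 26 tested genes in the promoter table (19.2%) held the motif in the 250 bases searched, and of the cytosolic aminoacyl-tRNA synthetases 3 of 16 (18.8%), against 2.32% of all tested genes there. On the ATF4 list it was held by 1 of 7 genes that fell and 4 of 19 not called, and among the synthetases by 3 of 10 that fell and 0 of 5 not called. The ATF4 and TARS1 windows held no match, and YARS1 was not in the table.

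ASNS (chr7:97852118-97872542) had 31.4, 34.1 and 33.0 CPM in wortmannin libraries against 54.9, 52.9 and 52.6 CPM in vehicle libraries (-0.70 ± 0.06, adjusted p = 9.34e-13), and ATF4 (chr22:39519695-39522685) had 204, 209 and 207 CPM against 253, 257 and 259 CPM (-0.31 ± 0.04, adjusted p = 3.18e-08). Neither gene's groups overlapped. Over the ATF4 list 9 of 33 genes fell and 0 rose, beside 7.46% and 6.26% of all genes tested, with a median of -0.16; the blocked fit of the 6 libraries alone called 15 lower. In serine and glycine synthesis PSAT1 had 60.4, 57.8 and 57.5 CPM against 79.3, 79.5 and 67.7 CPM (-0.37, adjusted p = 4.43e-06), PHGDH had 17.9, 17.8 and 18.3 CPM against 23.3, 24.8 and 24.0 CPM (-0.41, adjusted p = 1.1e-05), and the mitochondrial enzyme SHMT2 had 179, 190 and 192 CPM against 218, 224 and 227 CPM (-0.25, adjusted p = 6.93e-06). XPOT, which exports tRNA from the nucleus, had 184, 192 and 194 CPM against 237, 229 and 235 CPM (-0.30, adjusted p = 9.22e-08). No wortmannin library reached a vehicle library for these 4 genes. The amino acid transporters SLC7A11 (-0.40, adjusted p = 0.00108) and SLC7A5 (-0.36, adjusted p = 0.00166) fell too, but neither was called in the fit of 9 libraries. The stress genes DDIT3 (-0.16), ATF3 (0.02) and CHAC1 (-0.25) were not called.

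Among 20 cytosolic aminoacyl-tRNA synthetases, which load amino acids onto tRNA, 12 fell and 1 rose, beside 7.46% and 6.26% of all genes tested, with a median of -0.15; the lower count is 6 in the fit of 9 libraries, with or without the block. YARS1, the tyrosine enzyme (chr1:32775237-32818153), had 137, 139 and 135 CPM in wortmannin libraries against 189, 196 and 185 CPM in vehicle libraries (-0.47 ± 0.03, adjusted p = 4.39e-15). TARS1 had 249, 249 and 276 CPM against 320, 329 and 323 CPM (-0.33, adjusted p = 5.87e-08) and MARS1 125, 116 and 120 CPM against 158, 152 and 142 CPM (-0.32, adjusted p = 6.59e-08). VARS1, the valine enzyme, had 187, 188 and 198 CPM against 226, 219 and 223 CPM (-0.23, adjusted p = 4.98e-07). The groups of these 4 genes did not overlap. QARS1, the glutamine enzyme, was the 1 that rose, at 164, 160 and 158 CPM against 144, 140 and 145 CPM (0.17, adjusted p = 0.000324), a call that ended in the blocked fit of 9 libraries. Of the 17 mitochondrial synthetases 1 fell (YARS2, -0.26), with a median of 0.00; leaving out vehicle replicate 3 gave 3 and leaving out wortmannin replicate 3 gave 2, and YARS2 was not called in the fits of 9 libraries. Between the inhibitors, YARS1 did not differ detectably (log2 difference 0.08, adjusted p = 0.0616), ASNS was lower with wortmannin (-0.20, adjusted p = 0.0111), and VARS1 was higher, at 190 ± 6.06 CPM with wortmannin and 140 ± 3.56 CPM with LY294002 (0.44, adjusted p = 2.41e-15).

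Some chaperone genes fell as well. Of 17 tested chaperones and folding enzymes of the endoplasmic reticulum 9 fell, beside 7.46% of all genes tested, with a median of -0.21. HSP90B1, the reticulum's HSP90 (chr12:103930107-103953645), had 542, 534 and 545 CPM in wortmannin libraries against 715, 720 and 725 CPM in vehicle libraries (-0.41, adjusted p = 2.06e-12), and PDIA4, a disulphide isomerase, had 326, 324 and 342 CPM against 407, 400 and 390 CPM. HYOU1, a nucleotide exchange factor of the lumen, had 233, 230 and 234 CPM against 276, 281 and 289 CPM. Their groups stood apart. Of the 5 sensors and factors of the unfolded protein response 0 were called (XBP1 -0.04, ERN1 -0.12, ATF6 -0.04, ATF6B -0.09 and EIF2AK3 0.03), and of 8 degradation genes of the reticulum 0 were called; 0 of the 5 and 2 of the 8 had an unadjusted p under 0.05, and DESeq2 also called 0 of either, while the blocked fit of the 6 libraries alone called 1 degradation gene in each direction. Among 22 cytosolic and mitochondrial heat-shock genes 10 fell, and 5 did in the fit of 9 libraries, with or without the block. FKBP4, an HSP90 co-chaperone (chr12:2794953-2805423), had 170, 175 and 196 CPM against 223, 226 and 219 CPM (-0.30 ± 0.04, adjusted p = 2.65e-08), and HSPH1, an exchange factor for HSP70 (chr13:31134974-31162388), 389, 388 and 411 CPM against 499, 494 and 463 CPM (-0.29 ± 0.04, adjusted p = 9.18e-07). Both were higher with wortmannin than with LY294002, HSPH1 at 396 ± 13.2 and 282 ± 11.2 CPM (0.49 ± 0.04, adjusted p = 9.31e-13).

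**Figure D5:**
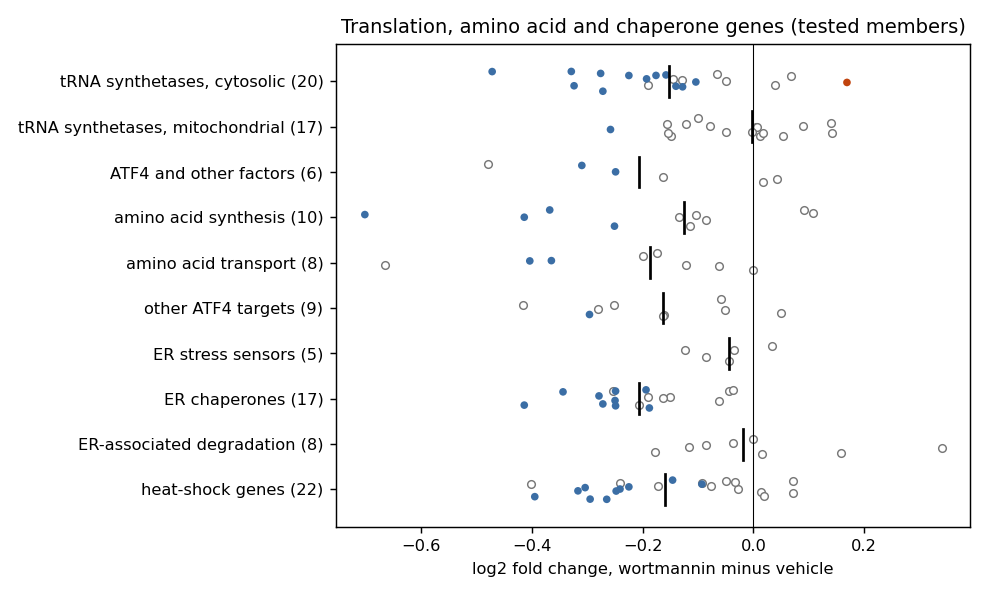
Log2 fold change, wortmannin over vehicle, of each tested gene of the ATF4, aminoacyl-tRNA synthetase and chaperone lists by role; filled blue points fell, filled red points rose, open points were not called and black bars are medians. The cytosolic synthetases centre at -0.15 and the mitochondrial ones at 0.00.

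Transcripts of the PI3K pathway itself changed little. Of 52 tested genes 5 were higher and 6 lower, beside 6.26% and 7.46% of all genes tested. The fit of the 6 libraries alone called 1 and 2, that of the 9 libraries 1 and 0, and the blocked fit of the 6 libraries 10 and 14; leaving out vehicle replicate 1 or wortmannin replicate 1 left 2 higher, leaving out replicate 2 of either group left 3 higher, and leaving out wortmannin replicate 1 left 3 lower. None of the 9 catalytic subunits of PI3K and PI4K or of the 8 AKT-branch kinases was called by edgeR over the 60 libraries without a block or by DESeq2, and 2 and 3 of them had an unadjusted p under 0.05. The blocked fit of the 6 libraries called 1 catalytic and 3 AKT-branch genes lower, the blocked fit of the 60 libraries 2 AKT-branch genes, and 1 catalytic gene was called without wortmannin replicate 2 and 1 AKT-branch gene without wortmannin replicate 3. PIK3CA had 42.1, 40.5 and 35.6 CPM in wortmannin libraries against 39.6, 42.3 and 36.4 CPM in vehicle libraries (0.00), and AKT1 (-0.04), AKT2 (-0.05) and MTOR (-0.06) were likewise not called. RPS6KB1, the S6 kinase, had 43.0, 44.9 and 43.7 CPM against 51.6, 53.8 and 49.0 CPM (-0.23, adjusted p = 0.000173), a call that ended in the fit of 9 libraries. DEPTOR, an inhibitor that binds mTOR (chr8:119873717-120050913), had 8.12, 7.74 and 7.63 CPM against 4.99, 4.77 and 5.30 CPM (0.64 ± 0.16, adjusted p = 0.00429) and was called in every fit run. The groups of both genes did not overlap.

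Receptors upstream of PI3K rose in 4 of 9 tested cases, beside 6.26% of all genes tested. INSR, the insulin receptor (chr19:7112255-7294034), had 29.9, 27.1 and 26.1 CPM in wortmannin libraries against 18.9, 20.3 and 20.6 CPM in vehicle libraries (0.48 ± 0.07, adjusted p = 9.69e-07). IGF1R had 136, 138 and 132 CPM against 110, 112 and 116 CPM (0.27, adjusted p = 0.000644) and ERBB2 had 202, 197 and 206 CPM against 172, 176 and 181 CPM (0.20, adjusted p = 0.000699), all without overlap. ERBB3 (0.19, adjusted p = 0.00761) was not called without vehicle replicate 2 (0.16), without wortmannin replicate 1 (0.16) or in the fits of 9 libraries, and EGFR (-0.05) and MET (-0.12) were not called. Of 8 adaptors IRS2 rose (chr13:109752698-109786568), with 40.6, 41.5 and 43.6 CPM against 30.4, 29.5 and 32.8 CPM (0.44 ± 0.08, adjusted p = 0.000126), and IRS1 (-0.04) was not called. INSR, IRS2 and ERBB3 are also on the list of 31 tested FOXO targets, of which 7 rose and 2 fell, beside 6.26% and 7.46% of all genes tested. Of these targets 4 rose without vehicle replicate 2, and in the fits of 9 libraries 4 rose and 0 fell. TXNIP, a regulator of glucose uptake, had 88.0, 86.2 and 70.3 CPM against 51.7, 51.5 and 50.05 CPM (0.68, adjusted p = 5.11e-10) and was lower with wortmannin than with LY294002 (-0.78, adjusted p = 9.63e-13). INSR averaged 27.7 ± 1.98 CPM with wortmannin and 26.9 ± 2.58 CPM with LY294002 (log2 difference 0.04, adjusted p = 0.70).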

How the data were processed

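HT29 messenger RNA libraries were made with a directional kit from 1 µg of RNA with an integrity number above 7 and read as 100 bp pairs, per the labels' protocols. The authors deposited 1 table of expected counts per gene; the submitters' processing notes name FastQC 0.11.9, Trim Galore 0.6.5, STAR 2.7.3a, RSEM 1.3.3 and the GRCh38 build. The annotation release is not given in the sources used here, nor is the strand setting of the counting. RSEM divides reads that match several genes, so 24.2% of the values above 0 are not whole, and expected counts of near-identical genes are uncertain. The table has 273 columns, of which 60 were matched to the labels and 213 were not used. Among the 60, the sample codes of the vehicle columns alone begin with the letter A. What this letter marks is not known here, and it cannot be told apart from the treatment. It was dropped where the first number of the code was used for a block.

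Counts were rounded to whole numbers. Genes were kept by edgeR's filterByExpr (at least 10 counts, at least 15 in total), which left 16767 of 60675. A single negative binomial model of all 60 libraries, 21 groups with a mean apiece (39 residual degrees of freedom, biological coefficient of variation 0.057) was fitted with TMM factors and tested with edgeR 4.0.16's quasi-likelihood test in R 4.3.3, with Benjamini-Hochberg adjustment over all genes tested and a threshold of 0.05. Wortmannin minus vehicle and wortmannin minus LY294002 were contrasts of this model. The spread is therefore shared with the extract groups, and fits of the 6 or 9 libraries are given as alternatives. Within the wortmannin, LY294002 and vehicle groups, no 2 libraries of a group were identical. CPM are counts scaled to a common library size with TMM factors and are not per length, so levels are not compared between genes. Gene coordinates are from GENCODE v29 (GRCh38) and symbols from a separate list of gene names, both matched by gene identifier. Promoter windows are from RefSeq (GRCh38.p14).

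The members and the gene lists were chosen with earlier results of these data known, so lists are described by counts and medians and carry no test of their own. Named are the 12 genes with the largest rise and the 12 with the largest fall (at least 5 CPM, no overlap between groups), up to 6 members with the smallest p in each role described and all tested members of roles of up to 12 genes, cell type markers, and up to 3 genes a theme for promoters. Alternatives were other scalings, DESeq2 1.42.0, no filter or a filter at 5 CPM, mitochondrially encoded genes left out, fewer libraries, a replicate block, and leaving out each library. The replicate block nested within the first number of the sample code was chosen after seeing the data. The fitting procedure was tested on simulated data. Some genes are not reported here.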

Additional observations from a re-analysis of the deposited data

How the results depend on the processing

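Of 153 tested genes named in the text, 110 were called, and over 2735 pairs of a gene and an alternative 1 called value changed sign, that of CYP1A1, which ran between -1.93 and 0.031 over the fits without 1 library and was 0.031 without vehicle replicate 1; sign changes of genes called in neither fit were not counted. Calls ended for 15 named genes in the fit of the 9 vehicle and inhibitor libraries and for 4 in that of the 6 libraries alone. Both fits have fewer residual degrees of freedom than the fit of 60 libraries, and why calls ended was not tested. The 2300 genes changed became 1249 in the 6 libraries alone and 836 in the 9, with 489 higher, and 545 and 347 lower; library totals alone left 743 lower. The 80 genes changed at least 2-fold became 43 by DESeq2, 11 at a mean of at least 5 CPM, 155 with no filter and 45 in the 9 libraries. The 3718 genes that differed between wortmannin and LY294002 became 1377 in those 6 libraries alone. Leaving out 1 library gave 1570 to 2186 genes changed, 757 to 980 higher, 813 to 1206 lower, 73 to 81 changed at least 2-fold and 2643 to 3758 different from LY294002. For the lists it gave 49 to 60 interferon genes higher, 31 to 38 antiviral genes higher, 63 to 68 mitotic genes lower, 9 to 14 cytosolic synthetases lower and 8 to 9 ATF4-list genes lower. Labels give the groups the same replicate numbers without saying that these pair libraries. Wortmannin and vehicle libraries of the same number correlated in their deviations by 0.11, 0.04 and 0.11 over all genes tested. Over the 10655 genes with at least 5 CPM the values were 0.49, 0.18 and 0.56. Each wortmannin library there correlated best with the vehicle library of its own number, a hint from the data and not from the design. The hint did not extend to all LY294002 libraries. Over these genes they correlated with vehicle libraries of the same number by -0.326, 0.142 and -0.26. With wortmannin libraries of the same number the values were -0.385, 0.277 and -0.175. With the replicate block the 9 libraries gave 720 genes changed (420 higher, 300 lower), 35 changed at least 2-fold, 1884 different from LY294002 and 6 cytosolic synthetases lower, as did the 9 without the block. With the replicate block the 6 libraries alone gave 3565 genes changed, 1731 of them higher, and 15 ATF4-list genes lower. A block nested within the first number of the sample code, chosen after seeing the data, gave 3024 (1393 higher, 1631 lower). Depth limits genes of few counts, such as IFNL1 with 4 counts with wortmannin and 1 with vehicle, which could not be tested.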

Other observations

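Of 18 tested clock genes 3 were lower with wortmannin (NR1D1, NR1D2 and PER1, all repressors of the clock), 0 were higher and 15 were not called, beside 7.46% lower of all genes tested; the blocked fit of the 6 libraries alone called 6 lower. NR1D2 had 33.2, 32.5 and 28.7 CPM in wortmannin libraries against 41.8, 42.1 and 43.9 CPM in vehicle libraries (log2 fold change -0.43 ± 0.07, adjusted p = 6.04e-06), and was also lower than with LY294002 (-0.30, adjusted p = 0.000634). NR1D1 had 14.8, 18.4 and 20.2 CPM against 23.4, 26.2 and 30.5 CPM (-0.59 ± 0.11, adjusted p = 0.000215). The groups of both genes stood apart. PER1, the third, had 10.4, 10.1 and 9.89 CPM against 12.5, 12.2 and 13.6 CPM (-0.33, adjusted p = 0.000534), a call that ended in the blocked fit of 9 libraries. Of 21 glycolysis genes 7 fell and 1 rose, beside 7.46% and 6.26% of all genes tested, and the 7 became 2 in the blocked fit of 9 libraries. LDHA, lactate dehydrogenase A, had 693, 737 and 748 CPM against 957, 930 and 962 CPM (-0.39 ± 0.04, adjusted p = 1.17e-11), and the brain-type aldolase ALDOC was the 1 that rose, at 23.0, 25.5 and 26.3 CPM against 17.5, 20.1 and 19.3 CPM (0.39, adjusted p = 6.55e-06).

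Of 5 EGFR ligands 2 fell, beside 7.46% of all genes tested. EREG, epiregulin, had 56.6, 61.1 and 59.5 CPM in wortmannin libraries against 93.4, 88.0 and 78.1 CPM in vehicle libraries (-0.55 ± 0.08, adjusted p = 8.98e-07), and AREG, amphiregulin, averaged 32.3 ± 1.39 CPM against 39.1 ± 1.64 CPM (SD, n = 3 each, -0.27, adjusted p = 0.00281). Both were higher than with LY294002, by 0.51 and 0.38 on the log2 scale. Wnt target genes were higher in 6 of 18 cases, beside 6.26% of all genes tested, and in 3 in the blocked fit of 9 libraries. Among them were the transcription factors SP5 (11.5, 12.9 and 13.7 CPM against 7.77, 9.99 and 8.62 CPM, adjusted p = 0.000275) and PROX1 (17.4, 16.9 and 18.1 CPM against 11.9, 14.3 and 14.2 CPM, adjusted p = 0.00117). Lysosomal hydrolases were higher in 7 of 22 cases and lower in 2, beside 6.26% and 7.46% of all genes tested. The 7 became 4 without vehicle replicate 3, without wortmannin replicate 1 or in the 6 libraries alone, and 3 in the fits of 9 libraries, where 0 were lower; without vehicle replicate 1 or wortmannin replicate 3 also 0 were lower. GRN, progranulin, had 409, 423 and 417 CPM against 328, 346 and 350 CPM (0.29, adjusted p = 9.1e-07), and GAA, the acid glucosidase, had 7.49, 6.61 and 6.80 CPM against 3.84, 4.07 and 3.80 CPM (0.83, adjusted p = 5.47e-06). Of the 12 epithelial markers 4 rose, 2 of them in the fits of 9 libraries, and 8 were not called, with log2 fold changes between -0.56 and 0.39 over the list. VIL1, villin, had the highest, at 225, 226 and 225 CPM against 177, 168 and 169 CPM (0.39, adjusted p = 2.09e-09). All 13 mitochondrially encoded messenger RNA genes had negative log2 fold changes, between -0.33 and -0.06. By edgeR over the 60 libraries and by DESeq2 0 of them were called and 2 had an unadjusted p under 0.05, whereas edgeR with no filter on low counts called 9 lower and with the replicate block on the 6 libraries 11; without vehicle replicate 1 the count was 2, and without wortmannin replicate 3 it was 1.

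CYP1A1, chosen after its values were seen, shows a call that rests on 1 library: it had 0.785, 0.734 and 0.693 CPM in wortmannin libraries against 4.87, 0.822 and 0.619 CPM in vehicle libraries (-1.50 ± 0.41, adjusted p = 0.00887), and without vehicle replicate 1 the log2 fold change was 0.031.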
